A study of Arabidopsis thaliana with 6 samples.

Results

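The gibberellin synthesis genes were followed in imbibed seeds of Arabidopsis thaliana as 10 loci named by identifier: GA1 (AT4G02780), GA2 (AT1G79460), GA3 (AT5G25900), KAO1 (AT1G05160) and KAO2 (AT2G32440) for the early steps, and GA20OX1 (AT4G25420), GA20OX2 (AT5G51810), GA20OX3 (AT5G07200), GA3OX1 (AT1G15550) and GA3OX2 (AT1G80340) for the late steps. All 10 were among the 32884 loci of each expression table. Messenger RNA was sequenced from 3 libraries of wild type and 3 of the mutant hda15-1, which carries a lesion in the histone deacetylase gene HDA15. Both genotypes are in ecotype Col-0. Plants were grown with 16 h of light and 8 h of dark at 22 °C, and the harvested seeds were dried for about 1 month. Seeds of both genotypes took up water for 1 h, were given far-red light at 3.82 µmol per square metre per second for 5 min and stood in darkness at 22 °C for 12 h, so no group without far-red light or with active phytochrome was compared. The nature of the lesion in hda15-1 is not described in the labels.

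Gibberellins are diterpenoid hormones that seeds of this species need in order to germinate. In the plastid, GA1 (ent-copalyl diphosphate synthase) and GA2 (ent-kaurene synthase) turn geranylgeranyl diphosphate into ent-kaurene, which the cytochrome P450 enzymes GA3 (ent-kaurene oxidase) and KAO1 and KAO2 (ent-kaurenoic acid oxidases) oxidise further. Dioxygenases then complete the pathway: the GA20OX enzymes make the direct precursors, and the GA3OX enzymes make the bioactive forms. In imbibed seeds of this species, GA3OX1 and GA3OX2 are known as genes whose transcripts rise after active phytochrome is formed by red light, a response that the basic helix-loop-helix factor PIF1 holds back in the dark.

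The first and the last step of the pathway had the lowest transcript levels, and only the last step separated the genotypes without overlap (plot of the 10 genes by library). GA3OX1 and GA3OX2 were higher in every hda15-1 library than in any wild-type library, at levels that correspond to few reads. For the other 8 genes the ranges of the 2 genotypes overlapped. Groups that did not overlap, with hda15-1 higher, were thus seen in 2 of 10 members, and in 5.83% of the 21626 genes with a value above 0 in at least 1 library. Groups that did not overlap with hda15-1 lower were seen in 0 of 10 members and in 3.86% of those genes. GA3OX2 is among the 21626 only through its mutant libraries, as wild type listed it at 0.

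**Figure D1:**
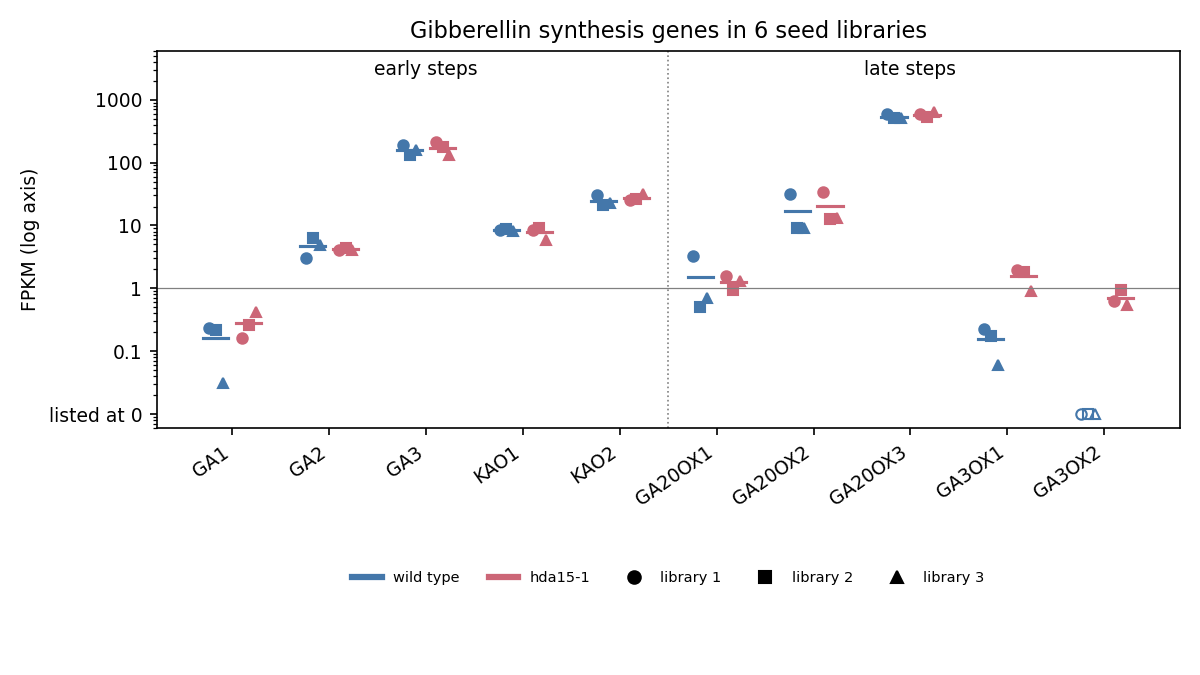
FPKM of each gene on a log axis in pathway order, with 1 symbol per library (circle, square and triangle for libraries 1, 2 and 3), blue for wild type, red for hda15-1, and a bar at the arithmetic mean of 3 libraries. The 3 open symbols mark wild-type libraries in which GA3OX2 was listed at 0, the grey line marks 1 FPKM, and GA3OX1 and GA3OX2 are the genes whose symbols separate by colour.

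FPKM is the number of fragments per kilobase of transcript, scaled to the mapped total of the library, so levels can be set beside each other between genes. Library sums ranged from 879239 to 1159516 FPKM, and between 18902 and 19375 genes per library had a value above 0. Read totals are unknown. From the lowest steps of the values, 1 read per kilobase was worth about 0.0810 to 0.114 FPKM, and relative depth ranged from 0.915 to 1.29 of that of wild type 1. HDA15 itself gave 16.1, 12.97 and 14.8 FPKM in the wild-type libraries, while hda15-1 gave 0.338, 0.651 and 0.417 FPKM. Its transcript was thus lower in every library labelled hda15-1 (log2 difference -3.41 ± 0.18 SE, adjusted p = 3.79e-04 in limma). The 11 seed reserve markers summed to between 66022 and 76680 FPKM in wild type and between 67958 and 101769 FPKM in hda15-1. These sums hold CRC, a cruciferin gene listed at 0 in wild type 3 and hda15-1 2 and at 17232 to 33132 FPKM in the other 4 libraries. Without CRC, the other 10 summed to between 48076 and 76680 FPKM in wild type and between 50726 and 87137 FPKM in hda15-1. The 4 markers of the developing seed coat did not exceed 0.0592 FPKM, with BAN and DFR listed at 0 in every library. The 6 markers of green seedlings summed to between 358.0 and 471.5 FPKM in wild type and between 456.8 and 629.8 FPKM in hda15-1. Of 6 endosperm markers, EXPA2 alone was without overlap, with wild-type levels of 78.6, 17.2 and 19.9 FPKM and mutant levels of 156.3, 163.7 and 247.4 FPKM, while their sum, mostly EPR1, ranged from 6683 to 10890 FPKM in wild type and from 7573 to 11450 FPKM in hda15-1. Whole seeds were sampled, so a change in the amount of a tissue and a change in transcript per cell cannot be told apart, and the part of tissue make-up in any difference was not tested.

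The sequences before the annotated starts of 2 late genes are shown because GA3OX1 was without overlap between genotypes and GA20OX2 differed between libraries. Each run holds the 250 bases that end just before the gene start in the TAIR10.1 annotation of RefSeq, read 5′ to 3′ on the gene's strand. Both genes lie on the minus strand, at chr1:5346343-5346592 for the GA3OX1 window and chr5:21056882-21057131 for GA20OX2. Capitals mark matches to CACATG on either strand, the E-box variant that PIF factors can bind.
GA3OX1: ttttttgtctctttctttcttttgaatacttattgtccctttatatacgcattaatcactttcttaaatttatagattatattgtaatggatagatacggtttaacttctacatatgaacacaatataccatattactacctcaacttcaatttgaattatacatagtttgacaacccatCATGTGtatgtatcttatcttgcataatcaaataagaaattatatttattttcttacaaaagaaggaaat
GA20OX2: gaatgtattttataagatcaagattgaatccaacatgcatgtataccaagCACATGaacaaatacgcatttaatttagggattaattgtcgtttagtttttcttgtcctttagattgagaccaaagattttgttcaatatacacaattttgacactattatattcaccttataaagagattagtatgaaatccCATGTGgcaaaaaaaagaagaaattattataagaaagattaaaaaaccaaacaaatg
The GA3OX1 window held 1 such match, starting 70 bases before the gene start, and the GA20OX2 window held 2, starting 200 and 57 bases before it. The window of GA20OX1, which also differed between libraries, held no such match and is not shown. Among the windows of the 9 members searched, all but GA3OX2, those of GA2, GA20OX2 and GA3OX1 had the variant, that is 3 of 9, against 11.1% of the 27443 windows of protein-coding genes. The G-box CACGTG was in 0 of 9 member windows and in 6.49% of all windows. The gibberellin response core TAACAA, searched on both strands, was in 3 of 9, those of KAO1, KAO2 and GA20OX3, and in 30.8% of all. The Dof core AAAG, also searched on both strands and left in lower case, was in 9 of 9 and in 98.0% of all. No marked matches overlapped. The windows of GA2, KAO1 and KAO2 hold exon sequence of another gene (AT1G79450, AT1G05170 and AT2G32430, in that order). These are letter matches in a short window, and binding was not measured in these data.

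The early steps spanned a wide range of levels and did not separate the genotypes. GA1, which starts the pathway, lies on chromosome 4 from 1237671 to 1244822 on the minus strand, with 15 exons. It had wild-type levels of 0.234, 0.219 and 0.0316 FPKM and mutant levels of 0.163, 0.261 and 0.425 FPKM. The lowest value was in wild type 3 and the highest in hda15-1 3, and the genotypes overlapped. With a spliced length of 2675 bases, 1 read of GA1 was worth about 0.0303 to 0.0426 FPKM, so these values stand for roughly 6, 7 and 1 reads in wild type and 5, 7 and 10 reads in hda15-1. With no minimum mean its log2 difference was 0.14 ± 0.11 (SE) with 1 added to each value and 0.61 ± 0.48 with 0.1 added, and its adjusted p in limma was 1.000 in both fits.

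GA2, on chromosome 1 from 29890367 to 29894646, measured 3.02, 6.26 and 4.86 FPKM across wild type, against 4.08, 4.37 and 4.06 FPKM across hda15-1. The mutant values all lay within the wild-type range. GA3, on chromosome 5 from 9035817 to 9038423, was the most abundant early transcript. It gave 189.8, 130.8 and 155.7 FPKM in the wild-type libraries, while hda15-1 gave 211.4, 176.6 and 129.7 FPKM, so the lowest and the highest of the 6 values were both in the mutant.

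Both ent-kaurenoic acid oxidase genes overlapped between genotypes. KAO1, on chromosome 1 from 1487378 to 1491005, had wild-type levels of 8.58, 8.64 and 8.12 FPKM and mutant levels of 8.49, 8.97 and 5.91 FPKM. One mutant library lay below the rest. KAO2, on chromosome 2 from 13774588 to 13778026, measured 30.2, 21.3 and 23.2 FPKM across wild type, against 25.4, 26.3 and 31.5 FPKM across hda15-1. The ranges overlapped, with the lowest values in wild type. KAO2 made up 74.4% ± 3.36 (SD, n = 3) of the summed KAO1 and KAO2 level in wild type and 77.9% ± 5.46 (SD, n = 3) in hda15-1. The 2 transcripts share no exact stretch longer than 31 bases, which limits but does not remove the chance that a short read was assigned to the wrong copy. GA2 overlaps AT1G79470, on the other strand, by 78 bases, and KAO1 overlaps AT1G05170, on the same strand, by 32 bases. Whether counting used strand is not given in the sources used here, so reads from these ends cannot be assigned with certainty.

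In limma, none of the 4 early genes whose mean reached 1 FPKM passed: each had an adjusted p of 1.000, with unadjusted p-values from 0.438 to 0.674. Log2 differences of FPKM + 1, taken as mutant minus wild type, were -0.10 ± 0.23 (SE) for GA2, 0.11 ± 0.25 for GA3, -0.12 ± 0.19 for KAO1 and 0.16 ± 0.19 for KAO2. The median over the 4 early genes tested was 0.0028, and that of all 15045 genes tested was 0.02. With GA1 included from the fit with no minimum mean, the median of the 5 was 0.11, beside 0.01 over all 21626 genes of that fit.

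Among the late steps, GA20OX3 carried nearly all of the transcript of the GA20OX step. GA20OX3, on chromosome 5 from 2243553 to 2245339, was the most abundant of the 10 genes. It gave 585.9, 508.3 and 518.8 FPKM in the wild-type libraries, while hda15-1 gave 583.9, 524.1 and 627.3 FPKM, overlapping ranges. Its share of the summed GA20OX1, GA20OX2 and GA20OX3 level was 96.9% ± 2.22 (SD, n = 3) in wild type and 96.5% ± 1.99 (SD, n = 3) in hda15-1.

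GA20OX2 and GA20OX1 were highest in library 1 of each genotype, and the genotypes overlapped. GA20OX2, on chromosome 5 from 21055179 to 21056881, had wild-type levels of 32.0, 9.15 and 8.98 FPKM and mutant levels of 34.5, 12.6 and 13.2 FPKM. Library 1 of each genotype stood well above the other 2, by 3.53 times their mean in wild type and 2.68 times in hda15-1. GA20OX1, on chromosome 4 from 12990851 to 12992585, measured 3.32, 0.504 and 0.713 FPKM across wild type, against 1.59, 0.927 and 1.297 FPKM across hda15-1. Library 1 was again the highest of each genotype, at 5.46 times the mean of the other 2 in wild type and 1.43 times in hda15-1. Library 1 of both genotypes exceeded all 4 other libraries in 3 of the 7 members tested, GA20OX1, GA20OX2 and GA3, and in 8.37% of all 15045 genes tested. GA20OX1 is among the 7 only through the libraries numbered 1, as its mean over the other 4 was under 1 FPKM. What a shared number stands for is not stated in the labels, and its part in these levels was not tested. The share of GA20OX3 in the step was lowest in the same 2 libraries, at 94.3% and 94.2%, against 97.5% to 98.2% in the other 4.

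**Figure D2:**
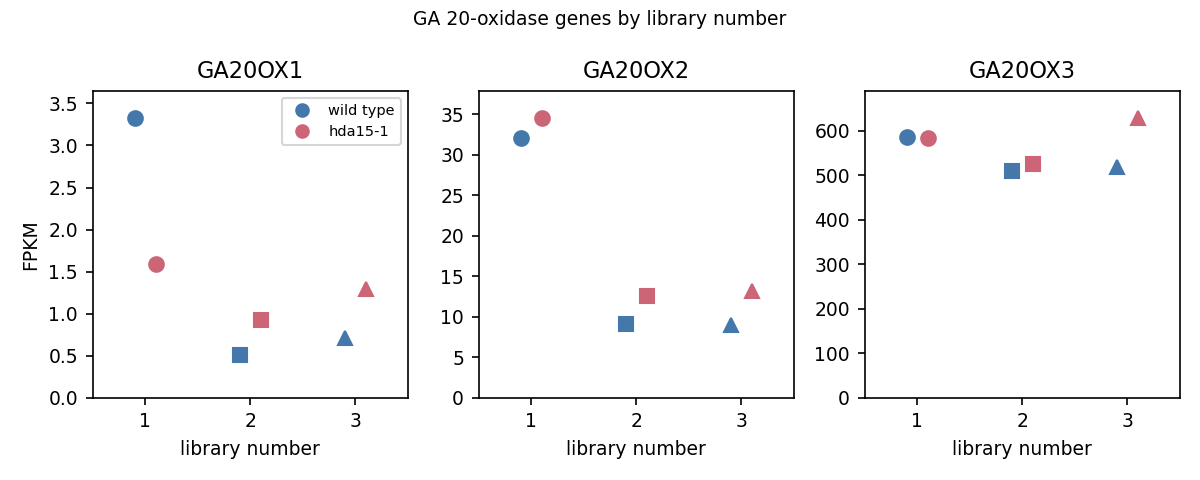
FPKM of GA20OX1, GA20OX2 and GA20OX3 against library number, with blue for wild type and red for hda15-1, each axis starting at 0 with its own scale. GA20OX2 is at 32.0 and 34.5 FPKM in the libraries numbered 1 and between 8.98 and 13.2 FPKM in the other 4, while GA20OX3 stays between 508.3 and 627.3 FPKM.

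None of the 3 GA20OX genes passed in limma, with adjusted p-values of 1.000 and unadjusted p-values from 0.540 to 0.972. The log2 difference was 0.10 ± 0.20 (SE) for GA20OX3, 0.34 ± 0.53 for GA20OX2 and 0.01 ± 0.39 for GA20OX1, the last being below 0 after scaling to equal upper quartiles or equal sums. Between the 2 libraries numbered 1 the difference was 0.10 for GA20OX2 and -0.74 for GA20OX1. Among the other 4 libraries it was 0.46 for GA20OX2 and 0.39 for GA20OX1. The adjusted p there in limma was 0.284 for GA20OX2, and 0.396 for GA20OX1 with no minimum mean, since its mean over these 4 libraries was under 1 FPKM.

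The genes of the last step, which yields active hormone, were lowest in wild type, where GA3OX2 was listed at 0, and had values above 0 in every mutant library. GA3OX1 lies on chromosome 1 from 5344388 to 5346342 on the minus strand, with 2 exons and 1077 coding bases. It gave 0.227, 0.178 and 0.0596 FPKM in the wild-type libraries, while hda15-1 gave 1.95, 1.85 and 0.906 FPKM. All 3 mutant values lay above all 3 wild-type values, and hda15-1 3 was the lowest of the mutant libraries. With a spliced length of 1522 bases these levels stand for roughly 3, 3 and 1 reads in wild type and 34, 28 and 12 reads in hda15-1. The ratio of the group means was 10.12, with wild-type means resting on so few reads that the ratio is imprecise.

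GA3OX2 lies on chromosome 1 from 30200466 to 30202349 on the minus strand, with 2 exons and 1044 coding bases, and its relative GA3OX4 ends 928 bases away. Each of the 3 wild-type libraries listed GA3OX2 at 0, while hda15-1 gave 0.640, 0.928 and 0.546 FPKM. With a spliced length of 1459 bases the mutant values correspond to roughly 11, 13 and 7 reads, and 1 read would have given about 0.0556 to 0.0715 FPKM in wild type. An exact 0 in these tables can be a failed estimate, and any fold against libraries at 0 would be set by the constant added, so no fold and no call is given for GA3OX2. GA3OX1 shares no exact stretch above 23 bases, and GA3OX2 none above 21 bases, with any other gene of the 2 oxidase families listed here. The GA3OX step as a whole had a summed level of 0.155 ± 0.0860 FPKM for wild type and 2.27 ± 0.716 FPKM for the mutant (SD, n = 3 each). In both genotypes it was far below the GA20OX step, whose sums were 555.9 ± 56.9 FPKM and 599.8 ± 54.9 FPKM.

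**Figure D3:**
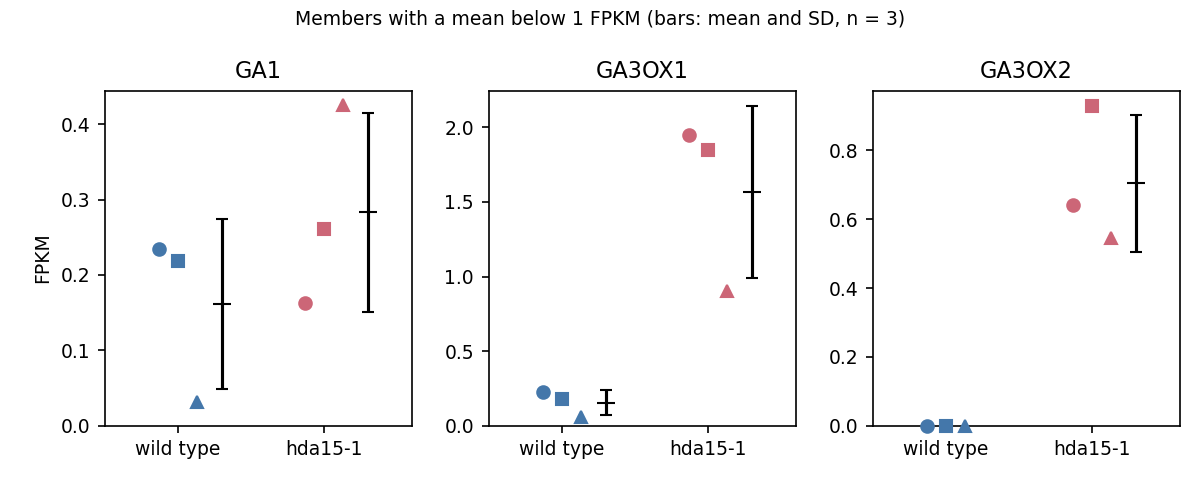
FPKM of the 3 genes with a mean below 1 FPKM, GA1, GA3OX1 and GA3OX2, 1 symbol per library (circle, square and triangle for libraries 1, 2 and 3), with the mean and SD of 3 libraries as a black bar, left out where all 3 are at 0. The genotypes overlap for GA1 and are apart for GA3OX1, at 0.0596 to 0.227 FPKM in wild type against 0.906 to 1.95 FPKM in hda15-1, and for GA3OX2, at 0 against 0.546 to 0.928 FPKM.

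Both GA3OX genes and GA1 were under the minimum mean of 1 FPKM, so 7 of the 10 members were tested over the 15045 genes. Of these 7, 0 passed as higher, against 0.199% of all genes tested, and 0 as lower, against 0.0199%. None of the 7 had an unadjusted p under 0.05. When every gene above 0 in at least 1 library was tested, 0.102% of genes passed as higher and again no member did. The log2 difference of GA3OX1 was then 1.13 ± 0.18 (SE), and its adjusted p in limma 0.152, with every hda15-1 library above every wild-type library. Unadjusted, 2 members were under 0.05 in that fit, GA3OX1 and GA3OX2, beside 5.70% of all its genes. GA3OX2 entered that fit only through hda15-1, and its p depends on the constant added, so it is not read as support. Adding 1 to values as low as those of GA3OX1 compresses the difference. With 0.1 added instead and no minimum mean, the log2 difference of GA3OX1 was 2.70 ± 0.44 and its adjusted p in limma 0.114, in a fit in which 0.129% of all genes passed as higher. GA3OX1 passed without hda15-1 3 and with no minimum mean, at an adjusted p of 0.0475 in limma. Leaving out any other library with no minimum mean gave adjusted p-values from 0.256 to 0.485 for GA3OX1. An exact two-sided permutation test of GA3OX1 and of GA3OX2, each alone, gave p = 0.1 for both, the smallest that 3 libraries against 3 can give. Groups without overlap fix this value, so it adds nothing to the separation already described. In the same permutation test every other member gave p = 0.3 or more.

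**Figure D4:**
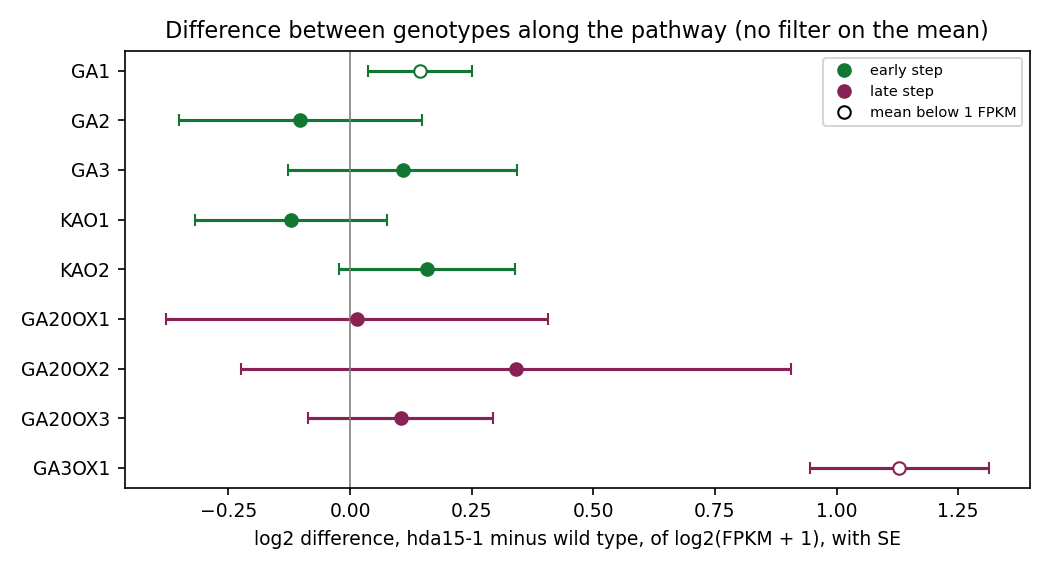
Log2 difference between genotypes (hda15-1 minus wild type, of log2(FPKM + 1)) with its SE from limma for 9 genes in pathway order, with no minimum mean, GA3OX2 left out as listed at 0 in wild type, green for early and purple for late steps, open symbols for genes with a mean below 1 FPKM. GA3OX1 at 1.13 lies to the right of the other 8 genes, which range from -0.12 to 0.34.

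Set against each other within each library, the 5 late genes had a lower mean log2(FPKM + 1) than the 5 early ones in all 6 libraries. This order rested on the 2 GA3OX genes, and the genotypes overlapped. The mean log2(FPKM + 1) level of the 5 late genes minus that of the 5 early genes was -0.29, -0.96 and -0.89 in wild type and -0.06, -0.42 and -0.36 in hda15-1. Wild type 1, with its high GA20OX1 and GA20OX2, stood among the mutant libraries. Group means were -0.71 ± 0.37 (SD, n = 3) and -0.28 ± 0.20 (SD, n = 3), a difference of 0.43, and of 1.14 with 0.1 added to each value in place of 1. Among the late genes, GA3OX1 and GA3OX2 differed most between genotypes, by 1.13 and 0.76 with 1 added. The GA20OX genes were at 0.01 to 0.34. The part of GA3OX2 is set by the constant added. Without the 2 GA3OX genes, late minus early had the reverse sign, above 0 in all 6 libraries. It was then 1.83, 0.72 and 0.84 in wild type and 1.58, 0.92 and 1.23 in hda15-1, with the highest value in wild type. The median log2 difference of the 5 late genes was 0.34, the value of GA20OX2. Leaving out wild type 2 gave 0.065, leaving out wild type 3 gave 0.080 and leaving out hda15-1 1 gave 0.096. Leaving out wild type 1 gave 0.76, which is the value of GA3OX2 and so set by the constant added.

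In the order of levels, GA20OX3, GA3, KAO2, GA20OX2, KAO1 and GA2 held the first 6 places in both genotypes. Among these, the ranges of KAO2 and GA20OX2 overlapped in each genotype. In wild type GA20OX1, GA1, GA3OX1 and GA3OX2 followed, the ranges of GA2 and GA20OX1 overlapping and those of GA1 and GA3OX1 too. In hda15-1, GA3OX1 came 7th with GA20OX1 and GA3OX2 after it, each overlapping the next, and GA1 was lowest, its highest value of 0.425 FPKM lying under the lowest of GA3OX2.

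Genes that feed, drain and read the pathway or regulate it were taken in 5 lists, and none passed in limma over all genes tested. An unadjusted p under 0.05 in limma was seen in 3 of their 29 tested genes, GGPS1, RGL2 and SPT. That share was above the 4.28% of all 15045 genes tested. Of the 37 list genes above 0 in a library, 7 were without overlap and higher in hda15-1. That share was above the 5.83% of all 21626 genes. Another 1 of the 37 was without overlap and lower, beside 3.86% of all 21626 genes. These shares were not tested, and the lists were chosen with earlier results of these data known. Of the 10 genes of plastid isoprenoid supply and prenyl diphosphate synthesis, all tested, GGPS1 had the smallest p. GGPS1, which makes the geranylgeranyl diphosphate that GA1 uses, had wild-type levels of 2.32, 1.71 and 2.12 FPKM and mutant levels of 7.20, 4.46 and 4.96 FPKM. All mutant libraries were above all wild-type libraries. Its log2 difference was 1.08 ± 0.21 (SE), and its adjusted p in limma was 0.189 in the standard fit and between 0.131 and 0.815 over the alternatives. ISPD, ISPF and ISPE, enzymes of the plastid route to isoprenoids, came next, with log2 differences of -0.32 ± 0.19, 0.27 ± 0.17 and 0.26 ± 0.25. ISPD, with means of 1.76 ± 0.250 FPKM for wild type and 1.21 ± 0.231 FPKM for the mutant (SD, n = 3), was the only gene of the list lower in every mutant library. The median log2 difference of this list was 0.01, beside 0.02 over all genes tested.

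Of the paralogues outside the 10, GA20OX4, GA20OX5, GA3OX3 and GA3OX4 were all listed at 0 in every library. Of 12 inactivation genes, 6 were listed at 0 throughout and 2 reached the minimum mean. GA2OX2, a dioxygenase that inactivates gibberellins, measured 21.3, 18.3 and 21.1 FPKM across wild type, against 33.3, 24.4 and 23.9 FPKM across hda15-1, without overlap (log2 difference 0.39 ± 0.19 SE, adjusted p = 1.000 in limma). CYP714A1, a cytochrome P450 that inactivates them, gave 31.7, 24.4 and 23.1 FPKM in the wild-type libraries, while hda15-1 gave 37.2, 27.2 and 29.7 FPKM, with overlap. Each of these 2 genes was thus well above the GA3OX genes in both genotypes. The median log2 difference of the 2 tested inactivation genes was 0.32, both being above 0, beside 0.02 over all genes tested.

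Of 10 perception genes, 7 were tested, and RGL2, GAI and RGL1 were without overlap. All 7 tested had a log2 difference above 0, with a median of 0.19, beside 0.02 over all genes tested. Above 0 were 7 after scaling to equal upper quartiles and 5 after scaling to equal sums. The shift of this list was not tested. RGL2, a DELLA repressor of gibberellin responses in seeds, had wild-type levels of 80.7, 69.5 and 81.2 FPKM and mutant levels of 109.3, 103.8 and 103.2 FPKM, and GAI, another DELLA gene, was also higher in each mutant library, with log2 differences of 0.45 ± 0.17 and 0.50 ± 0.24 (SE) and adjusted p-values of 0.993 and 1.000 in limma. RGL3 and RGA, the other DELLA genes of that group with the smallest p, overlapped. RGL1, named outside the rule after its values were seen, measured 0.102, 0.125 and 0.0414 FPKM across wild type, against 0.474, 0.633 and 0.444 FPKM across hda15-1, and its adjusted p was 0.171 (limma, no minimum mean). As RGL1 was picked for its values, it adds nothing to the GA3OX result. GID1B and SNE, the other perception genes under the minimum mean, overlapped between genotypes.

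Of 11 genes known to act on GA3OX or GA20OX expression or on gibberellin-dependent germination, 10 were tested. SPT, a basic helix-loop-helix factor that represses GA3OX genes in dormant seeds, gave 1.71, 1.84 and 1.43 FPKM in the wild-type libraries, while hda15-1 gave 2.66, 2.80 and 3.34 FPKM (log2 difference 0.56 ± 0.18 SE, adjusted p = 0.826 in limma). The groups did not overlap. JMJ22, a histone arginine demethylase that acts on GA3OX1 and GA3OX2 chromatin, had wild-type levels of 22.6, 21.6 and 20.9 FPKM and mutant levels of 26.8, 23.8 and 29.2 FPKM, also without overlap (log2 difference 0.28 ± 0.16 SE, adjusted p = 1.000 in limma). DAG1, a Dof factor that represses GA3OX1, and AGF1, which binds the GA3OX1 promoter, overlapped between genotypes. The list's median log2 difference was 0.00 to 2 decimals, with 5 genes above 0 and 5 below, and with 3 above and 7 below after scaling to equal upper quartiles or equal sums.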

How the data were processed

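Transcripts of whole seeds were measured in 3 wild-type and 3 hda15-1 libraries. The authors deposited FPKM values, 1 table per library. Tools listed in the submitters' processing notes are Bowtie 0.12.2, Cufflinks and Cuffdiff, with build TAIR10. The settings, the annotation version and the use of strand were not stated there. Depth in reads is unknown; the FPKM value of 1 read was estimated from the lowest values of genes with 1 transcript, times spliced length. Read numbers derived from it are approximate and cover counting error only.

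Positions, lengths and windows came from RefSeq's TAIR10.1 annotation, joined by locus for 32538 rows. The tables hold no coordinates. The promoter window of GA3OX2 is not reported here.

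Genotype was tested two-sided in limma (3.58.1, under R 4.3.3), using log2(FPKM + 1), a variance trend and genes whose mean reached 1 FPKM, with Benjamini-Hochberg adjustment over all genes tested and a threshold of 0.05. The fit was tested on simulated data. Alternatives covered the pseudocount, minimum mean, scaling, variance model, a replicate block and libraries left out. Nothing in the labels ties the libraries to separate seed lots, so the p-values reflect only spread among these samples, possibly technical. Members and lists were chosen with earlier results of these data known. Named genes were HDA15, all members, and per list every gene past the threshold or else up to 4 with the smallest p.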

Additional observations from a re-analysis of the deposited data

How the results depend on the processing

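No tested member passed in either direction under any alternative with the minimum mean of 1 FPKM. With no minimum mean, 1 member passed at a pseudocount of 0.1 (GA3OX2, whose difference from libraries at 0 is set by the pseudocount and is not read as a call), and between 0 and 1 when 1 library was left out (GA3OX1, without hda15-1 3). GA3OX1 and GA3OX2 kept a positive difference wherever tested, a direction that groups without overlap fix when libraries are left out. GA20OX1 was at -0.027 with the same upper quartile and -0.034 with the same sum. Leaving out 1 library moved GA20OX1 between -0.27 and 0.49 (-0.18 without wild type 3, -0.086 without hda15-1 1), GA20OX2 between -0.11 and 0.91, GA2 between -0.34 and 0.091, GA3 between -0.052 and 0.30 (-0.023 without wild type 2) and KAO1 between -0.22 and 0.043. RGA was at -0.019 without the 2 libraries numbered 1.

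The early median was 0.0089 with the same sum, and between -0.052 and 0.19 when 1 library was left out; the late median was between 0.065 and 0.76. The genotype difference in late minus early was 1.14 at a pseudocount of 0.1, where the part of GA3OX2 is set by the pseudocount. Of all genes, 30 were higher and 3 lower. Higher genes numbered 13 with a minimum mean of 5 FPKM, 18 with the same sum, 73 (12 lower) without the 2 libraries numbered 1, and 6 with no minimum mean as well, an alternative added after the data were seen. With 1 library left out and a minimum mean of 1 FPKM they numbered 8 (hda15-1 2) to 31 (wild type 1), and lower ones 3 to 5. With no minimum mean as well, they numbered 1 (wild type 3) to 19 (hda15-1 1), with 11 without hda15-1 3, and lower ones 2 to 9. At a pseudocount of 0.1 with no minimum mean, 8 were lower.

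With a replicate block 13 genes were higher, and with no minimum mean as well 0 were higher and 0 lower, with HDA15 at -3.41 (adjusted p = 0.0798, limma). Deviations of same-numbered libraries correlated at -0.0790, -0.114 and -0.162 across genes, so the number was not taken as a pairing. No library correlated best with the library of its own number. The cause of these changes was not tested. GA1, GA3OX1 and GA3OX2 rest on the fewest reads.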
